A study of Mus musculus with 8 samples.

Results

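Fam20a, Fam20b and Fam20c form a small gene family of kinases and a kinase-like partner that work inside the secretory pathway, on proteins and proteoglycans bound for the extracellular matrix. Their rows were chosen by gene name from a table of read counts, and they make 3 of its 54532 genes. All 3 passed the filter on low counts, which left 16440 genes to be tested. RNA-seq was performed on first molars of wt C57BL/6 mouse pups that received no treatment. Molars at day 5 (P5) hold secretory enamel organs and molars at day 12 (P12) hold maturation enamel organs, and the soft tissue of the pulp chamber was removed before RNA extraction. Each of the 4 libraries per age was made by polyA capture from a pool of 5 pups, so that n = 4 pools in both groups, and the test asked how each gene's RNA differed between the ages. The labels name the cells as epithelially derived. They describe the molars left after this step as the material put into TRIzol, while the study's methods speak of pooled enamel organs, so the sources differ on how much other tissue was included.

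FAM20C is the protein kinase of the Golgi that phosphorylates serines of secreted proteins, among them amelogenin, ameloblastin and enamelin of the enamel matrix and the acidic phosphoproteins of dentin and bone. FAM20A keeps the fold of a kinase but does not phosphorylate substrates by itself, and it binds FAM20C and raises its activity. FAM20B does not act on proteins. It phosphorylates the xylose at the start of the sugar linker that joins glycosaminoglycan chains to proteoglycan core proteins. Loss of FAM20A in humans causes enamel renal syndrome, with hypoplastic enamel, and loss of FAM20C causes Raine syndrome, a disorder of bone and tooth mineralization.

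All 3 genes lie on different chromosomes of the mouse assembly GRCm38. Fam20a (ENSMUSG00000020614) lies on chromosome 11 from 109669749 to 109722279 on the reverse strand, with 3634 bases of exon. Fam20b (ENSMUSG00000033557) lies on chromosome 1 from 156678532 to 156719086 on the reverse strand, with 8770 bases of exon. Fam20c (ENSMUSG00000025854) lies on chromosome 5 from 138754514 to 138810077 on the forward strand, with 6590 bases of exon. In GENCODE M21, Prkar1a on the opposite strand ends 92 bases from Fam20a and shares 0 exonic bases with it. An opposite-strand gene model, Gm19918, shares 400 bases with the exons of Fam20b (4.56% of them), and the table gives it 0 counts in every library. No other gene lies within the exons of Fam20c.

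The 250 bases before the RefSeq start (build GRCm38.p6) were 61.2% G and C for Fam20a and 81.2% for both Fam20b and Fam20c, against a median of 52.4% over 32851 mouse promoters, of which 74.8% and 99.1% had a lower value. The stretches that lie outside annotated exons are printed to show the sequence at the starts of these genes, and no relation between these letters and the changes between the ages was tested. They are read 5′ to 3′ on the strand of the gene, at chr11:109722280-109722488 for Fam20a and chr1:156719087-156719160 for Fam20b, both on the reverse strand. The capitals mark CCAAT boxes (CCAAT or ATTGG) and GC boxes (GGGCGG or CCGCCC).
Fam20a: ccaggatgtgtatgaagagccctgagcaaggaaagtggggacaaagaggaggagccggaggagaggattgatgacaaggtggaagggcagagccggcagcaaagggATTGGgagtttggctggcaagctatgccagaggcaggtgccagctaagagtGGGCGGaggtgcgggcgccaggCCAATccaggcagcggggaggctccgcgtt
Fam20b: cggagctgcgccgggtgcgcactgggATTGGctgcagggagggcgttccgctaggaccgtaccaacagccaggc
The window of Fam20c lay wholly within its first exon. Over the full 250 bases, CCAAT boxes numbered 2, 1 and 1 in Fam20a, Fam20b and Fam20c, and GC boxes 1, 3 and 1. Of all promoters of this length, 33.8% held a CCAAT box and 32.7% a GC box. CpG pairs numbered 10, 36 and 41 in the same order. TATAAA (12.4% of all promoters), TAATT (25.0%), CACGTG (6.02%) and TGTGGT (14.05%), each searched on both strands, were in none of the 3 windows. These letters are a description of the windows, and no factor was measured on them.

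The P5 libraries held 16574548 to 20262601 counts and the P12 libraries 17588152 to 22013456. At P5 a group of 20 highly abundant genes took 34.1% to 35.7% of a library's counts, and at P12 the top 20 took 16.8% to 18.97%. Normalization therefore used TMM in edgeR, which scales on the bulk of the genes, and a normalized count below is a count divided by the effective library size and set to its mean over libraries. With total counts as the only scaling, the median gene moved from a log2 fold change of 0.01 to 0.38. In that fit 14.2% of genes were called lower and 54% higher, and it is named below where it turned a direction. The secretory ameloblast markers (Amelx, Ambn, Enam, Mmp20) summed to 4966560 to 5580350 normalized counts at P5 and 237041 to 621683 at P12, and all 4 fell. The maturation markers (Klk4, Amtn, Odam, Wdr72, Slc24a4) summed to 12880 to 44228 at P5 and 356963 to 482565 at P12, and all 5 rose. Markers of mesenchyme (740552 to 1056600 over all 8 libraries) and odontoblasts (148030 to 196703) were present in every library, so that the RNA was not from epithelium alone. Libraries that stood apart within their age were P5 replicate 5, with the lowest maturation sum (12880, against 36789 to 44228), and P12 replicate 4, with the highest secretory sum (621683, against 237041 to 433633) and the lowest oral mucosa sum (891, against 9676 to 18032). Of its age, P5 replicate 5 also had the lowest secretory sum (4966560), and P12 replicate 4 the highest maturation sum (482565).

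All 3 Fam20 genes were lower at P12 than at P5, Fam20a by 3.88-fold, Fam20c by 2.19-fold and Fam20b by 1.24-fold. Of all genes tested, 28.4% were called lower and 28.8% higher (57.2% in all) at an adjusted p under 0.05, and 10.2% were called with a log2 value of -1 or less, as Fam20a and Fam20c were. In none of the 3 genes did the libraries of the ages overlap, where 52.5% of all genes showed no overlap and 26.6% had every P12 library below every P5 library. Being called lower is therefore common in this comparison, and the size of the change is what separates the members. Of all genes tested, 4.11% had a lower log2 fold change than Fam20a, 8.95% a lower one than Fam20c and 29.6% a lower one than Fam20b.

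Fam20c, the protein kinase, had normalized counts of 6362, 6152, 6243 and 6263 in P5 replicates 1, 3, 4 and 5, and 2633, 2817, 2894 and 3087 in P12 replicates 1 to 4. The P5 libraries lay within a narrow band, every P12 library lay far under it, and P12 replicate 4 was the highest of its age. At P5 the mean was 6255 ± 86.2 (SD, n = 4), and at P12 it was 2858 ± 188 (SD, n = 4). This was a log2 fold change of -1.13 (95% confidence interval -1.27 to -0.99, SE 0.06, Benjamini-Hochberg adjusted p = 9.2e-08, edgeR quasi-likelihood test). It stayed lower and past the threshold in all 18 alternative fits, between -1.17 and -0.76. In raw counts, Fam20c had 4949, 5503, 4736 and 5917 reads at P5, against 3591, 3338, 3123 and 3075 at P12, again without overlap.

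Fam20a, the partner that raises FAM20C activity, had normalized counts of 7901, 7765, 8270 and 8727 in P5 replicates 1, 3, 4 and 5, and 2266, 2129, 2240 and 1773 in P12 replicates 1 to 4. P5 replicate 5 was the highest of its age and P12 replicate 4 the lowest, and both are the libraries named above for their marker sums. At P5 the mean was 8166 ± 431 (SD, n = 4), and at P12 it was 2102 ± 227 (SD, n = 4). This was a log2 fold change of -1.96 (95% confidence interval -2.15 to -1.77, SE 0.09, Benjamini-Hochberg adjusted p = 1.5e-08, edgeR quasi-likelihood test). It remained lower and past the threshold in all 18 alternative fits, between -2.002 and -1.58, and without P12 replicate 4 it was -1.89. In raw counts, Fam20a had 6146, 6946, 6274 and 8245 reads at P5, against 3091, 2523, 2417 and 1766 at P12. In these bulk samples, fewer cells of a type and less RNA per cell cannot be told apart. The fall of the secretory ameloblast sum and the rise of the maturation sum moved with the fall of Fam20a and Fam20c between the ages, and their part in it was not tested.

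Fam20b, the xylose kinase, had normalized counts of 1963, 1931, 1922 and 1922 in P5 replicates 1, 3, 4 and 5, and 1467, 1544, 1664 and 1580 in P12 replicates 1 to 4. The P5 libraries were nearly equal and all P12 libraries lay under them, although by a small step. At P5 the mean was 1934 ± 19.5 (SD, n = 4), and at P12 it was 1564 ± 81.9 (SD, n = 4). This was a log2 fold change of -0.31 (95% confidence interval -0.43 to -0.18, SE 0.06, Benjamini-Hochberg adjusted p = 7.1e-04, edgeR quasi-likelihood test). This direction depended on the scaling: with total counts the value was 0.06 (SE 0.05, adjusted p = 0.31 in the same test), which is -0.31 relative to the median gene of that fit. When the 20 most abundant genes were left out of the total, an alternative chosen after seeing the data, it was -0.29 (adjusted p = 7.4e-04). Fam20b was lower and past the threshold in 17 of the 18 alternative fits. Its raw counts, with 1527, 1727, 1458 and 1816 reads at P5 against 2001, 1830, 1796 and 1574 at P12, did overlap.

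**Figure D1:**
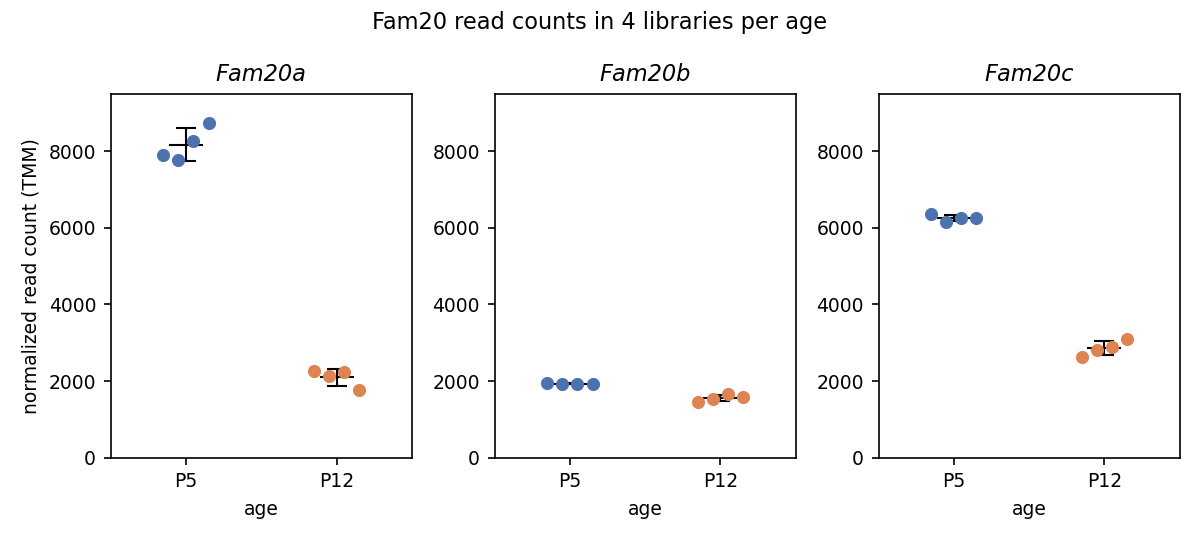
Normalized read counts (TMM, vertical axis from 0) of Fam20a, Fam20b and Fam20c in the 4 libraries at P5 (blue) and the 4 at P12 (orange), each point a pool of 5 pups, with the mean as a line and the SD as bars. Fam20a lies at 7765 to 8727 in the P5 libraries and 1773 to 2266 in the P12 libraries, Fam20c at 6152 to 6362 and 2633 to 3087, and Fam20b at 1922 to 1963 and 1467 to 1664, a step that total count scaling turns to a log2 value of 0.06.

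The exact permutation test on log2 normalized counts (two-sided, pseudocount 1) gave p = 0.0286 for each of the 3 genes, the smallest value that 4 libraries against 4 allow, and 0.0286 after Benjamini-Hochberg adjustment over the 6 exact tests made here. With total count scaling the same exact permutation test gave p = 0.11 for Fam20b and 0.0286 for Fam20a and Fam20c. The spread between P5 libraries was close to counting error in Fam20c (coefficient of variation 1.38%, counting error alone 1.38%) and under it in Fam20b (1.01%, against 2.48%). In Fam20a it was 5.27% against 1.21%. At P12 the spread exceeded counting error in all 3, at 10.8% in Fam20a, 5.23% in Fam20b and 6.59% in Fam20c, against 2.05%, 2.36% and 1.75% from counting.

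**Figure D2:**
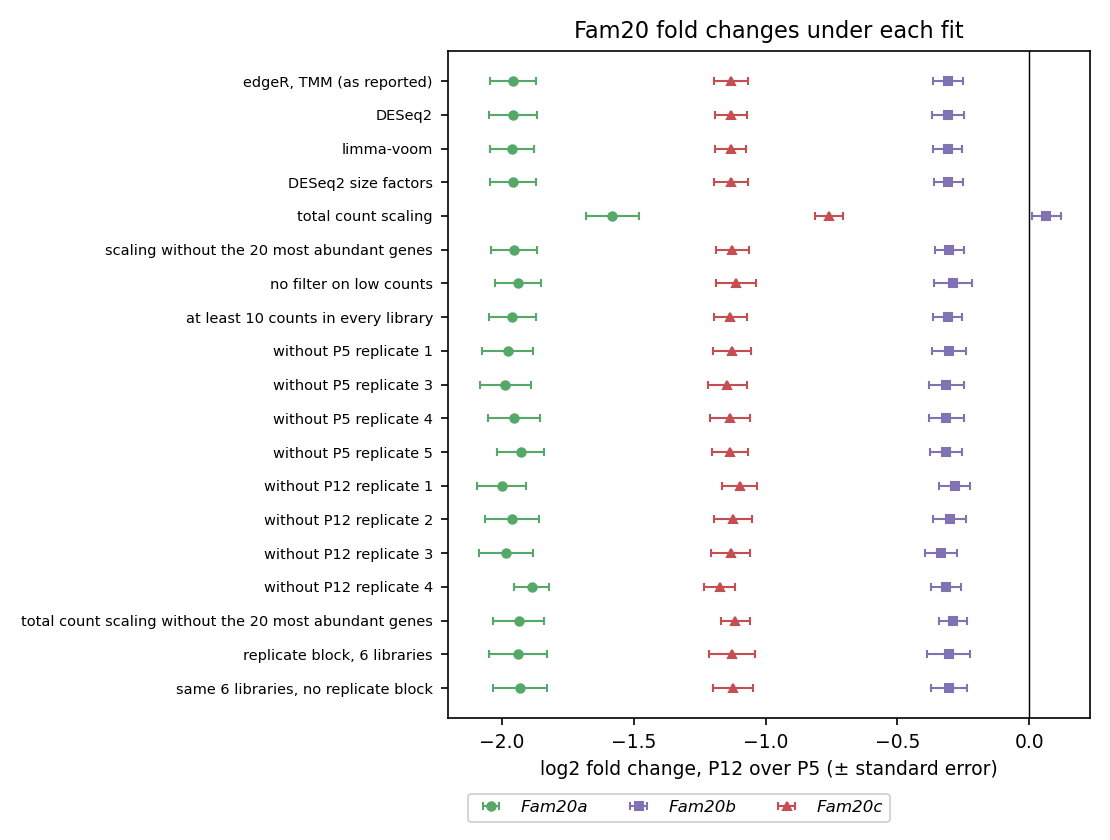
Log2 fold change of P12 over P5 (horizontal axis, bars are standard errors) for Fam20a (circles), Fam20b (squares) and Fam20c (triangles) under the reported fit, in the top row, and 18 alternatives. The order Fam20a, Fam20c, Fam20b is the same in each row, and total count scaling moves all 3 to the right, to -1.58, -0.76 and 0.06, which takes Fam20b across 0.

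Levels of different genes were compared per length, here as normalized counts per kilobase of all annotated exons of a gene. Which transcripts of each gene were expressed was not measured, so that the order, ratios and shares per length depend on these lengths. At P5, Fam20a had 2247 ± 118 (SD, n = 4) normalized counts per kilobase, and at P12 it had 578 ± 62.5 (SD, n = 4). The level of Fam20c fell from 949 ± 13.1 (SD, n = 4) to 434 ± 28.6 (SD, n = 4). That of Fam20b was 221 ± 2.22 (SD, n = 4) at P5, against 178 ± 9.33 (SD, n = 4) at P12. By these lengths the order was Fam20a, Fam20c, Fam20b in each of the 8 libraries, and neighbours in this order did not overlap within an age. They came nearest at P12, where Fam20a ranged from 488 to 624 and Fam20c from 399.5 to 468, and within P12 replicate 4 Fam20a was 1.04 times Fam20c. Among all genes tested, Fam20a lay above 98.7% at P5 and 92.8% at P12 by this measure. Fam20c lay above 96.1% and 89.3%, and Fam20b above 77.7% and 72.8%.

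The ratio between a pair of genes within a library does not depend on how the library is scaled, and it shows that the genes changed unequally. Counts of Fam20a per count of Fam20c were 1.24, 1.26, 1.32 and 1.39 in P5 replicates 1, 3, 4 and 5 and 0.861, 0.756, 0.774 and 0.574 in P12 replicates 1 to 4. Every P5 library had more counts of the partner than of the kinase and every P12 library had fewer. Per length, Fam20a remained above Fam20c, from 2.25 to 2.53 times at P5 and from 1.04 to 1.56 times at P12. At P5 the log2 ratio of counts was 0.38 ± 0.07 (SD, n = 4), against -0.45 ± 0.25 (SD, n = 4) at P12, a difference of -0.83 (exact permutation test, two-sided p = 0.0286). P12 replicate 4 was the lowest of its age, and without it the difference was -0.71.

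The log2 ratio of Fam20a to Fam20b was 2.08 ± 0.08 (SD, n = 4) at P5, against 0.42 ± 0.19 (SD, n = 4) at P12. Its difference of -1.65 was the largest of the 3 pairs (exact permutation test, two-sided p = 0.0286). Per length, Fam20a stood 9.71 to 11.0 times above Fam20b at P5 and 2.71 to 3.73 times above it at P12. The log2 ratio of Fam20b to Fam20c went the other way, from -1.69 ± 0.01 (SD, n = 4) to -0.87 ± 0.07 (SD, n = 4), a difference of 0.82 (exact permutation test, two-sided p = 0.0286). Relative to the protein kinase, the xylose kinase was thus higher at P12 in every library, whatever the scaling.

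**Figure D3:**
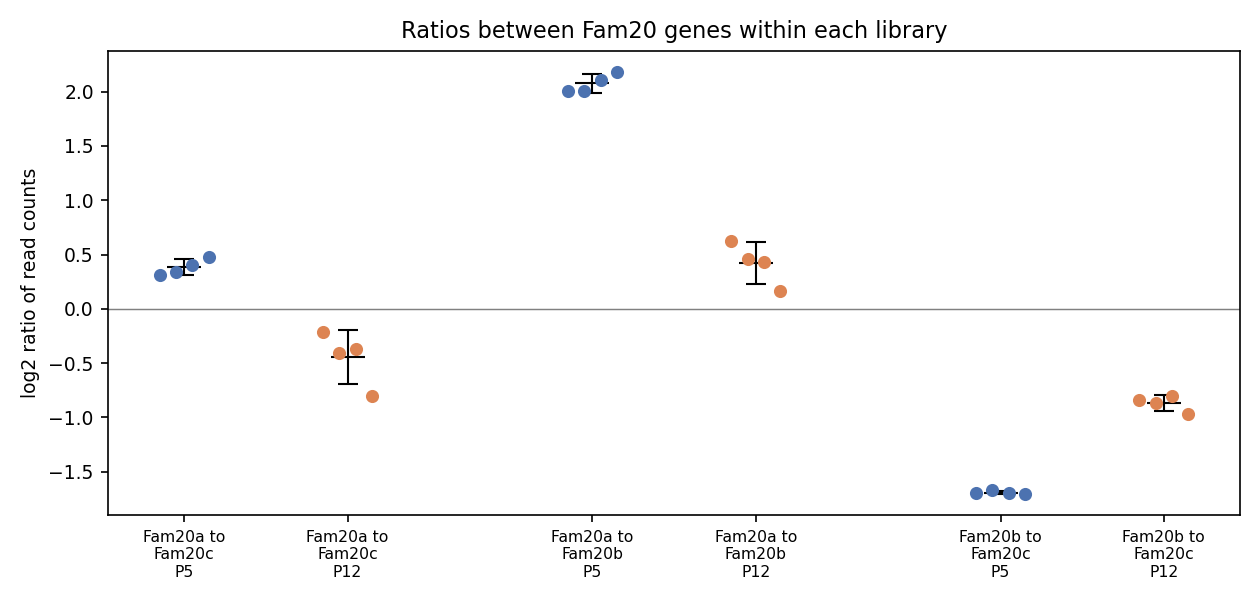
Log2 ratio of read counts between pairs of Fam20 genes within each library (vertical axis), at P5 (blue) and P12 (orange), with the mean as a line and the SD as bars. The ratio of Fam20a to Fam20c passes from 0.31 to 0.48 at P5 to between -0.80 and -0.22 at P12. No pair overlaps between the ages, and the share of all gene pairs without overlap was not computed.

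As shares of the summed family level per length, Fam20a made up 65.7% ± 1.19 (SD, n = 4) at P5, against 48.5% ± 3.99 (SD, n = 4) at P12. Fam20c made up 27.8% ± 0.94 (SD, n = 4) and 36.5% ± 3.30 (SD, n = 4). Fam20b made up 6.46% ± 0.26 (SD, n = 4) and 14.99% ± 0.76 (SD, n = 4). By this measure Fam20a was the largest part of the family at both ages. In P12 replicate 4 it came nearest to Fam20c, at 42.9% against 41.2%.

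Within an age, Fam20a and Fam20c did not keep the same order of libraries. P12 replicate 4 had the lowest Fam20a and the highest Fam20c. It also had the highest secretory ameloblast sum of the P12 libraries and their highest maturation sum (482565, against 356963 to 458253). P5 replicate 5 had the highest Fam20a, together with a Fam20c level between those of the other P5 libraries. Its maturation sum and its secretory sum (4966560, against 5202350 to 5580350) were both the lowest of the P5 libraries. With 4 libraries per age, a relation between these measures was not tested.

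The genes most alike to each member were sought among 11056 protein-coding genes with a mean normalized count of at least 100, by Pearson's r of log2 normalized counts over the 8 libraries. These values describe profiles that share the step between the ages, so that 11.5% of the genes had r over 0.95 with Fam20a, 5.42% with Fam20b and 11.99% with Fam20c. Nearest to Fam20c were Rbm22, a splicing factor (r = 0.9996), Eloa, a subunit of the elongin complex (r = 0.9994), and Slc35b1 (r = 0.9993). SLC35B1 carries ATP into the lumen of the endoplasmic reticulum, and the gene is also in the list of lumenal ATP, protease, cation and phosphatase genes described below. Nearest to Fam20a were Bccip (r = 0.9989), Pstpip1 (r = 0.9988) and Pik3r1, a regulatory subunit of phosphoinositide 3-kinase (r = 0.9985). These 3 fell by unequal amounts, with log2 fold changes of -0.84, -3.27 and -1.49. Nearest to Fam20b were Otud5, a deubiquitinase (r = 0.9931), Luc7l2, a splicing factor (r = 0.9928), and Socs2, a suppressor of cytokine signalling (r = 0.9922). Their log2 fold changes were -0.40, -0.48 and -0.76, and total count scaling moved those of Otud5 to -0.03 (adjusted p = 0.68) and of Luc7l2 to -0.11 (adjusted p = 0.13 in the same edgeR quasi-likelihood test with Benjamini-Hochberg adjustment).

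The secreted calcium-binding phosphoproteins (SCPP) of enamel, dentin and bone include known substrates of FAM20C. Of the 11 genes listed, 10 were tested, 5 rose, 4 fell and 1 passed no threshold, a share called of 90% against 57.2% of all genes (28.8% higher and 28.4% lower). The median log2 fold change was 0.92 against 0.01 over all genes. The enamel matrix genes fell far more than Fam20c did. Enam fell from 589755 ± 42562 (SD, n = 4) to 598 ± 318 (SD, n = 4) normalized counts, a log2 fold change of -9.95. Amelx had a log2 fold change of -5.74 and Ambn of -2.57. The genes of proteins at the surface of maturing enamel rose, Odam by 4.57 on the log2 scale, Amtn by 1.86 and Scpppq1 (Gm17660 in the table) by 7.47. Scpppq1 rose from 42.6 ± 16.5 (SD, n = 4) to 7468 ± 2336 (SD, n = 4) normalized counts.

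Of the SCPP genes known from bone and dentin, Spp1 (osteopontin) rose by 2.16 and Ibsp (bone sialoprotein) by 1.77 on the log2 scale. Dspp, the major phosphoprotein gene of dentin, had 158556 ± 23095 (SD, n = 4) normalized counts at P5, against 167051 ± 12929 (SD, n = 4) at P12 (log2 fold change 0.08, Benjamini-Hochberg adjusted p = 0.64, edgeR quasi-likelihood test). Under total count scaling Dspp was called higher (0.45, adjusted p = 0.011 in the same test). Dmp1 was lower by a small margin (-0.42, adjusted p = 0.049 in the same test), and this call was lost in 9 of the 18 alternative fits, with a value of -0.04 under total count scaling. It was lost without any 1 of P5 replicates 3, 4 and 5 (-0.46, -0.47 and -0.28) or P12 replicates 1, 3 and 4 (-0.46, -0.37 and -0.30). Mepe was too low to be tested, with 6, 4, 1 and 4 counts at P5 and 21, 70, 19 and 8 at P12. Under total count scaling the list had 6 genes called higher and 3 lower. Of the 4 osteoblast markers, Bglap2, Ibsp and Sp7 rose, and Bglap was not called (0.32, adjusted p = 0.062 in the edgeR test). The osteoblast sum, which includes Ibsp itself, went from 17728 to 24426 at P5 to between 25455 and 37524 at P12. The part of osteoblasts in the values of Spp1 and Ibsp was not tested.

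Counts on SCPP genes per count on Fam20c were lower at P12 than at P5, since these genes fell more in sum than the kinase did. They took 23.8% to 26.2% of all counts at P5 and 4.64% to 6.83% at P12. For each count on Fam20c there were 813 to 918 SCPP counts at P5 and 284 to 390 at P12. For Amelx, Ambn and Enam alone these values were 789 to 890 and 88.6 to 199.6, and P12 replicate 4 held the highest of the latter. For the other SCPP genes the ratio went the other way, from between 24.3 and 35.1 at P5 to between 191 and 211 at P12. Enamel matrix genes thus made most of the phosphoprotein counts in each P5 library, and the other SCPP genes, with Odam and Dspp as the most abundant, made most of them in P12 replicates 1, 2 and 3. In P12 replicate 4 the enamel matrix genes were slightly ahead, at 199.6 against 191.

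Genes that serve the lumen in which FAM20 kinases work were taken as a list of 7. Of these, 5 fell, 1 rose and 1 was not called, a share called of 85.7% against 57.2% of all genes, of which 28.4% were lower. The median log2 fold change was -0.52. Acp4, an acid phosphatase whose loss causes thin enamel, fell from 19194 ± 878 (SD, n = 4) to 4539 ± 1045 (SD, n = 4) normalized counts, a log2 fold change of -2.08 (SE 0.14), close to that of Fam20a. Slc35b1 fell from 3186 ± 65.6 (SD, n = 4) to 1330 ± 82.9 (SD, n = 4), or by 1.26 on the log2 scale (SE 0.06), close to the value of Fam20c. Mbtps1, the site-1 protease that cleaves the FAM20C propeptide, had a log2 fold change of -0.74.

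Slc10a7, a regulator of cellular calcium uptake, had -0.52, and its call was lost under total count scaling (-0.15, adjusted p = 0.16 in the same edgeR quasi-likelihood test with Benjamini-Hochberg adjustment). Tmem165, a Golgi transporter of manganese and calcium, had -0.19 (adjusted p = 0.019), which total count scaling turned to 0.18 (adjusted p = 0.027). Its call was lost without P5 replicate 1 (-0.18, adjusted p = 0.051), without P5 replicate 3 (-0.18, 0.052), with a replicate block (-0.20, 0.069) and with no filter on low counts (-0.17, 0.076). Atp2c1, the calcium and manganese pump of the Golgi, rose by 0.49 on the log2 scale, and its relative Atp2c2, at 30.2 and 32.0 normalized counts, was not called (0.09, adjusted p = 0.80). Under total count scaling 2 of the 7 were called higher and 3 lower.

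FAM20B works together with the enzymes that build the proteoglycan linker, of which 12 genes were listed. At P12, 4 were lower, 3 were higher and 5 were not called, a share called of 58.3% against 57.2% of all genes, with a median log2 fold change of 0.09. Pxylp1, the phosphatase that removes the phosphate FAM20B adds, fell from 3416 ± 330 (SD, n = 4) to 953 ± 63.1 (SD, n = 4) normalized counts, a log2 fold change of -1.84 (SE 0.08, Benjamini-Hochberg adjusted p = 1.5e-08, edgeR quasi-likelihood test). The P5 libraries held 3138 to 3832 and the P12 libraries 862 to 996. The eraser of the xylose phosphate was thus lower at P12 by more than the kinase that writes it, whose log2 fold change was -0.31. The difference between these values was not itself tested.

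Xylt1, which adds the xylose to the core protein, had a log2 fold change of -1.45, while its relative Xylt2 was not called (0.12). B4galt7, which adds the first galactose, had -0.83, and the next enzymes B3galt6 (0.03) and B3gat3 (0.06) were not called. Ugdh (0.21) and Uxs1 (0.15), which make the sugar donors, were not called either. Ugdh passed the threshold in 5 of the 18 alternative fits, among them those without P5 replicate 4 (0.26, adjusted p = 0.044) or P12 replicate 1 (0.25, 0.043). Another was total count scaling (0.58, adjusted p = 6.0e-05 in the edgeR test), under which Uxs1, Xylt2, B3galt6 and B3gat3 were also called higher. Extl3, which starts heparan sulfate chains, rose by 0.59 on the log2 scale, and Extl2, which can end the growing linker, by 0.39. Of the genes that start chondroitin sulfate chains, Csgalnact2 rose by 0.69, and Csgalnact1 had -0.27 (adjusted p = 0.048 in the edgeR test). The call of Csgalnact1 was lost in 13 of the 18 alternative fits, and total count scaling turned its value to 0.10. Without any 1 library except P5 replicate 5 its value was -0.30 to -0.23, with an adjusted p of 0.059 to 0.11, and with a replicate block it was -0.36 (adjusted p = 0.051). Under that scaling 8 of the 12 genes were called higher and 3 lower.

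The proteoglycan core proteins that carry the linker moved in both directions. Of 21 genes, 9 rose, 10 fell and 2 were not called, a share called of 90.5% against 57.2% of all genes. The median log2 fold change was 0.06, and under total count scaling 11 were called higher and 7 lower. The largest falls were those of Ncan, from 415 ± 131 (SD, n = 4) to 36.6 ± 34.3 (SD, n = 4) normalized counts (log2 fold change -3.56), Gpc2 (-2.07) and Gpc3 (-2.04). The largest rises were those of Sdc4, from 1072 ± 34.4 (SD, n = 4) to 4634 ± 305 (SD, n = 4) (2.11), Cspg4 (1.83) and Acan (1.72). Acan was low at both ages, at 15.2 ± 7.06 (SD, n = 4) and 50.7 ± 21.3 (SD, n = 4) normalized counts. The list summed to 92112 to 99513 in the P5 libraries and 86979 to 93594 in the P12 libraries.

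**Figure D4:**
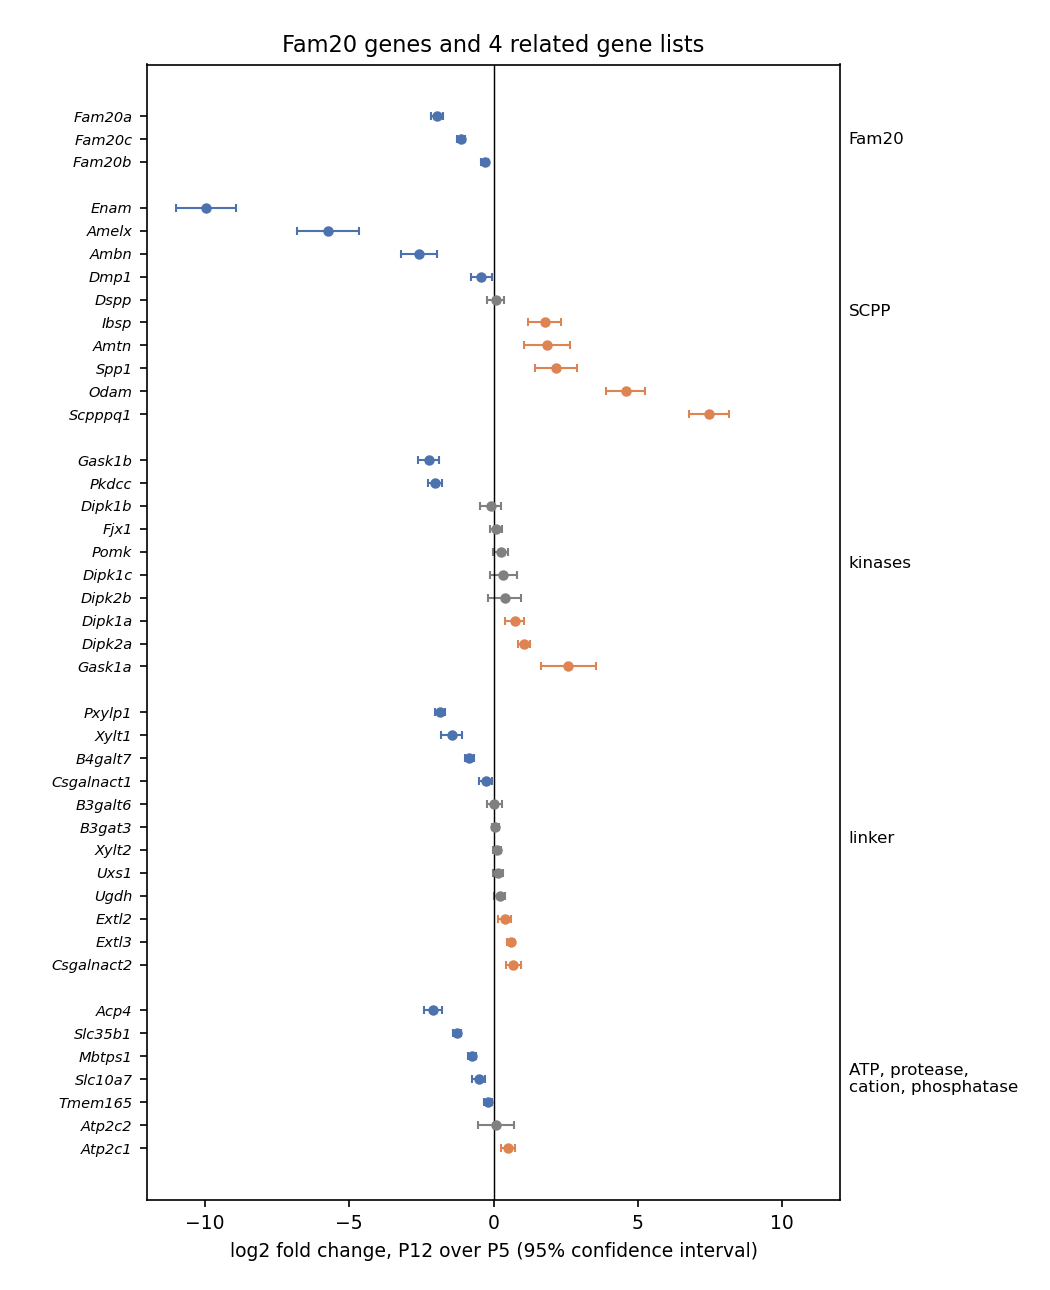
Log2 fold change of P12 over P5 with 95% confidence intervals (horizontal axis) for the Fam20 genes and every tested gene of 4 related lists, with genes called lower in blue, called higher in orange and not called in grey. The falls of the Fam20 genes, -1.96, -1.13 and -0.31, lie within the range of the kinase list (-2.24 to 2.58) and far inside that of the SCPP list (-9.95 to 7.47), and total count scaling moves Fam20b, Csgalnact1, Tmem165 and Dipk1b to the other side of 0.

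Other kinases of the secretory pathway and their relatives were listed to place the family among genes of a like kind. Of 10 genes, 3 rose, 2 fell and 5 were not called, a share called of 50% against 57.2% of all genes, with a median log2 fold change of 0.29. Pkdcc, a secreted tyrosine kinase of extracellular proteins, fell from 3310 ± 242 (SD, n = 4) to 813 ± 146 (SD, n = 4) normalized counts (log2 fold change -2.02). Gask1b, a Golgi-associated relative, fell from 2122 ± 25.6 (SD, n = 4) to 450 ± 136 (SD, n = 4) (-2.24). Their falls were of the size of that of Fam20a.

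Gask1a rose by 2.58 on the log2 scale from a low level, 11.2 ± 3.52 (SD, n = 4) to 66.2 ± 33.9 (SD, n = 4) normalized counts. Dipk2a rose by 1.05 and Dipk1a by 0.74. Fjx1, the mouse relative of the Golgi kinase four-jointed (0.10), Pomk, a kinase of O-mannose glycans (0.25), Dipk1b (-0.09), Dipk1c (0.34) and Dipk2b (0.38) were not called, although Pomk passed the threshold without P5 replicate 1 (0.36, adjusted p = 0.015). Under total count scaling 7 of the 10 were called higher and 2 lower, and the latter were again Pkdcc (-1.65) and Gask1b (-1.88). Those called higher in that fit included Fjx1, Pomk, Dipk1c and Dipk2b. The list summed to 6971 to 7330 normalized counts in the P5 libraries and 3538 to 4342 in the P12 libraries, of which Pkdcc and Gask1b made the larger part at P5.

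The other cell types of the dissected tissue also differed between the ages. All 4 endothelial markers rose, with a sum of 2093 to 2496 at P5 and 4055 to 4394 at P12. All 5 markers of macrophages and osteoclasts rose, with a sum of 1678 to 2440 at P5 and 4135 to 9179 at P12. Markers of dental and oral epithelium summed to 92720 to 98521 at P5 and 263068 to 327809 at P12, so that the epithelial sum was higher at P12 while all 3 Fam20 genes were lower in the TMM-scaled counts. All 4 oral mucosa markers rose, from 10.3-fold (Sprr1a) to 18.1-fold (Krt13), with a sum of 504 to 896 at P5 and 9676 to 18032 in P12 replicates 1 to 3, but 891 in P12 replicate 4. The mesenchyme markers moved unequally. Postn rose by 3.95, Col3a1 by 3.64 and Lum by 1.54 on the log2 scale, while Col1a1 had a value of -0.34 (not called) and Col1a2 of -0.36. The mesenchyme sum was 874144 to 1056600 at P5 and 740552 to 1003870 at P12. Of 3 odontoblast markers, Dspp and Phex were not called. No marker of the 12 lists was at 0 in every library, and the part of any of these cell types in the Fam20 values was not tested.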

How the data were processed

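RNA-seq was performed on 4 pools of wt first molars at each of P5 and P12. The authors deposited whole-number read counts per gene with coordinates and lengths. The submitters' processing notes name CASAVA and mm39, yet 53462 of 54532 genes have their GRCm38 coordinates of GENCODE M21, and the aligner, counter and use of strand are not given in the sources used here. Groups and replicate numbers came from the sample labels, and every sample column was mapped. No library was a copy of another: in the 12 pairs of the same age, a chi-square divided by its degrees of freedom was 5.04 to 84.9. Counting error is the only error that depth sets here, with a floor of 3 counts (0.136 to 0.181 CPM). Tests used filterByExpr, TMM, glmQLFit and glmQLFTest of edgeR 4.0.16 (R 4.3.3), with no covariate and Benjamini-Hochberg adjustment over all genes tested. Alternatives were DESeq2 1.42.0, which the study's methods name, limma-voom 3.58.1, other scalings and filters, each library left out, a replicate block and stricter thresholds. In simulated counts edgeR recovered 74.2% of genes changed by 1 and 97.9% of those changed by 2 log2 units among 16440. Only 200 genes were changed there, up and down alike, where 9411 were called in the data. These shares therefore do not give the recovery in this comparison. Exact permutation tests over 70 splits used scipy 1.17.1, with numpy 2.4.6, pandas 2.3.3 and matplotlib 3.10.9. The named genes are the 3 members, all genes of 4 lists, the 3 largest rises and falls among core proteins, the 3 most alike genes per member, exon neighbours, and cell type markers where they moved with a result. Members and lists were chosen with earlier results of these data known. P-values measure the spread between pools, which the labels do not tie to separate litters. Staining, EDX and cell culture data were not analysed here.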

Additional observations from a re-analysis of the deposited data

Results flagged for a closer look

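The 4 libraries of each age were checked for every named gene, 142 sets in all. In 7 sets the highest or lowest library stood far off its neighbours, and chance alone gives about 7.1 (1 in 20 sets). None was a Fam20 gene. Dmp1 was at 2078 normalized counts in P5 replicate 5, against 1444 to 1515 in the other P5 libraries. Csgalnact1 was at 204 in the same library, against 247 to 255. B3gat3 was at 1213 in P5 replicate 3, against 1143 to 1155, and at 1299.9 in P12 replicate 1, against 1181 to 1199.9. Tmem165 was at 2478 in P12 replicate 3, against 2244 to 2271. Slc10a7 was at 556 in P12 replicate 4, against 432 to 449. Bccip, a gene whose profile is most alike to that of Fam20a, was at 506 in P12 replicate 4, against 573 to 583.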

How the results depend on the processing

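The log2 fold changes of Fam20a and Fam20c kept their direction and their side of the threshold in all 18 alternative fits, and that of Fam20b in 17. Total count scaling turned the Fam20b log2 fold change to 0.0646 and its difference in log2 normalized count to 0.0636 (exact permutation test, p = 0.11), and the ages differ in the share of counts taken by the 20 most abundant genes. It gave levels per kilobase of 1948.6 and 651 for Fam20a at P5 and P12, 191 and 200.03 for Fam20b, and 823 and 486 for Fam20c, and it called 9 kinase genes and 11 linker genes, with 8877 genes higher and 2330 lower over the whole table, against 4735 and 4676 as reported. Where a call also needed an absolute log2 value of 1 or more, calls came to 3541 over the whole table, 2 linker genes, 2 of the ATP, protease, cation and phosphatase genes and 10 core protein genes. Leaving out each library in turn gave log2 fold changes of -2.002 to -1.89 for Fam20a, -0.33 to -0.28 for Fam20b and -1.17 to -1.10 for Fam20c, with 8708 to 10030 genes called over the whole table. The differences in log2 normalized count were -2.001 to -1.88, -0.34 to -0.28 and -1.17 to -1.09, and the log2 ratios -0.91 to -0.71 for Fam20a to Fam20c, -1.72 to -1.57 for Fam20a to Fam20b and 0.80 to 0.86 for Fam20b to Fam20c. With 3 libraries against 4, an exact permutation test cannot give a p below 0.0571, so that these say nothing about stability. Levels per kilobase were 2196 to 2284 and 563 to 609 for Fam20a, 219 to 221 and 175 to 182 for Fam20b, and 944 to 954 and 422 to 445 for Fam20c. Calls were 8 to 10 SCPP genes, 5 to 6 kinase genes, 6 to 7 linker genes, 5 to 6 of the ATP, protease, cation and phosphatase genes and 16 to 20 core protein genes.

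Replicate numbers 1, 3 and 4 occur at both ages, but same-numbered libraries did not deviate together (correlations of 0.042, -0.007 and -0.010), so that the numbers were not taken as pairs. With the number as a replicate block over these 6 libraries, log2 fold changes were -1.94 for Fam20a, -0.31 for Fam20b (adjusted p = 0.0149, edgeR) and -1.13 for Fam20c, and 7710 genes were called, against 8117 in the same 6 libraries with no block. The block called 9 SCPP, 5 kinase, 6 linker, 5 ATP, protease, cation and phosphatase, and 18 core protein genes. Depth sets a counting error of 1.21% to 2.48% on the Fam20 counts, as a mean over the 4 libraries of an age, and limits low genes such as Mepe.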
